A study of Mus musculus with 12 samples.

Results

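Expression of 10 genes that set the strength of insulin, FOXO and mTOR signaling was followed in germ cells and somatic cells of the mouse fetal ovary after maternal treatment with dexamethasone (dex), a man-made ligand that activates the glucocorticoid receptor (GR). The 10 genes were chosen by name as regulators of these pathways that are known to respond to glucocorticoids, with earlier results of these data known, so the number that responded is no independent evidence about the pathways. They are Sgk1, Ddit4, Sesn1, Sesn2, Sesn3, Irs1, Irs2, Pik3r1, Foxo1 and Foxo3. All 10 were found among the 54532 gene rows of the count table, and all 10 passed the low-count filter in every comparison. Embryos of every group carried Tg(Pou5f1-EGFP)2Mnn, in which a Pou5f1 (OCT4) regulatory sequence drives green fluorescent protein (GFP) in germ cells. Dams had received 10 µg of dex per g of body weight, or saline, once a day for 4 days, first at E12.5 (embryonic day) and last at E15.5, when ovaries were collected. Bulk RNA-seq was then performed on 4 groups of 3 libraries, namely GFP+ germ cells after dex, GFP+ germ cells after saline, GFP- somatic cells after dex and GFP- somatic cells after saline. Each library was a pool over more than a single litter, so the spread between libraries is that between pools. The somatic fraction held every cell without GFP, and in such bulk samples fewer cells of a type and less RNA per cell cannot be told apart.

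Insulin and insulin-like growth factors bind receptor kinases, which phosphorylate the adaptors IRS1 and IRS2. The adaptors recruit phosphoinositide 3-kinase (PI3K) through its regulatory subunits, among them the p85-alpha protein of Pik3r1, and PI3K activates the kinases AKT and SGK1, which in turn exclude the FOXO transcription factors from the nucleus and relieve inhibition of the growth kinase complex mTORC1. DDIT4 (REDD1) and the sestrins act in the opposite sense, as stress-induced inhibitors of mTORC1, and in oocytes FOXO3 is known as a factor that holds primordial follicles in their dormant state. Several of these genes, with Sgk1 and Ddit4 foremost, are textbook targets of GR in other tissues.

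The 12 libraries held 14658503 to 18245507 counts. Levels are given as CPM, the count scaled to library size by TMM (trimmed mean of M-values). Where genes are compared with each other, they are given as the deposited FPKM, which also divides by the exonic length of the gene. That length is fixed per gene and need not be that of the transcripts present in these cells, which limits comparisons between genes. The 8 germ cell markers summed to between 3225 and 3892 CPM in the germ cell libraries and between 5.89 and 24.0 CPM in the somatic libraries, with Pou5f1 and Dppa3 at 0 in all 3 dex soma libraries. Conversely, the median somatic marker stood in germ cells at 2.91% ± 0.99 (saline) and 4.26% ± 1.96 (dex) of its somatic level (SD, n = 3), with single libraries between 1.81% and 6.04%. Among dex-responsive genes, Fkbp5 (a chaperone that binds GR) averaged 313 CPM in dex soma and 129 CPM in saline soma, a log2 fold change of 1.29 (SE 0.08, edgeR adjusted p = 2.61e-07). In germ cells its log2 fold change was 0.33 (SE 0.08), which did not pass the test (edgeR adjusted p = 0.162). All adjusted p-values are after Benjamini-Hochberg adjustment, in edgeR over the genes tested and in the DESeq2 alternative over those that its own default filter keeps. The GR target Tsc22d3 gave 1.08 in soma (edgeR adjusted p = 6.2e-07) and -0.04 in germ cells (0.866). Its germ cell level was above the somatic level under either treatment. Germ cells held 366 to 415 CPM after saline and 357 to 410 CPM after dex. Soma held 64.1 to 69.0 CPM after saline and 129 to 151 CPM after dex. Nr3c1, the gene of GR itself, averaged 160.05 ± 5.25 CPM in germ cells after saline, against 84.2 ± 6.11 CPM in the saline soma (SD, n = 3). It was not called for dex in either cell type. In germ cells Pou5f1 averaged 19.2 ± 6.21 CPM after saline and 20.5 ± 2.54 CPM after dex.

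Dex changed 6 of the 10 regulators in the soma. Pik3r1, Ddit4, Foxo3, Sgk1 and Sesn1 rose and Sesn3 fell with an adjusted p no higher than 0.05 under the quasi-likelihood test of edgeR. Of all 16556 genes tested in the soma, 8.18% were called, 4.81% as higher and 3.36% as lower. The median log2 fold change of the 10 was 0.31, against 0.00014 over all genes tested. For 9 of the 10, all but Irs1, the 3 dex libraries lay wholly above (7 genes) or wholly below (2 genes) the 3 saline libraries, a pattern found in 12.7% of all genes tested in the upward direction and in 12.8% in the downward direction.

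In germ cells none of the 10 was called by edgeR, where 0.208% of the 16857 genes tested were. Ddit4, Foxo1 and Foxo3 had an unadjusted p under 0.05 in edgeR, as had 1963 of the 16857 genes. DESeq2 called 1 of the 10, Ddit4, where it called 158 of 33149 genes. That total counts every gene with a p-value, scarce ones included, so it is not a like background to the 16857 of edgeR. The same 3 genes were those whose dex and saline libraries did not overlap, Ddit4 in the upward direction (6.86% of all genes) and Foxo1 and Foxo3 in the downward direction (10.0%). The dex effect itself was then compared between the cell types over all 12 libraries. That difference was called for 3 of the 10, Pik3r1, Foxo1 and Foxo3, each with a lower value in germ cells than in soma, where 1.62% of 19390 genes were called and 1.13% were called as lower.

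**Figure D1:**
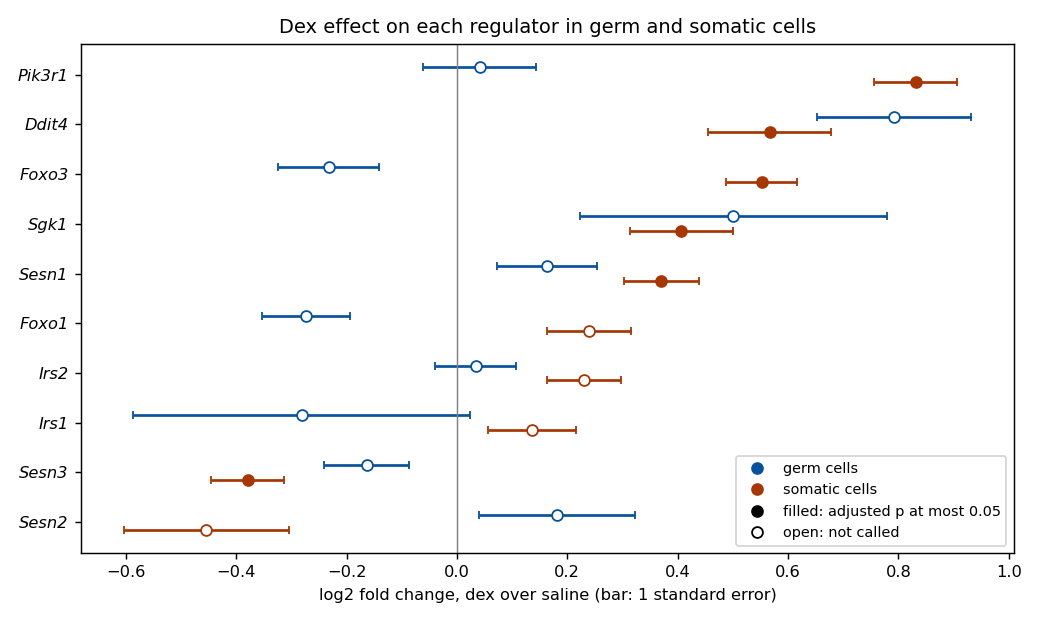
Log2 fold change of dex over saline (x axis) for each of the 10 regulators (y axis) in germ cells (blue) and somatic cells (orange), with bars of 1 standard error and filled points where the adjusted p was at most 0.05. 6 somatic points are filled and no germ cell point is, and Pik3r1, Foxo3 and Foxo1 show the gaps that passed the test of the difference, at -0.80, -0.80 and -0.52.

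Sgk1 encodes a kinase related to AKT that acts on ion transport and on the FOXO factors. The gene (ENSMUSG00000019970) lies on chromosome 10, 21882184 to 21999903, on the plus strand of GRCm38. It is shown with sequence because, among the 10 regulators, only its RefSeq promoter windows held the palindromic glucocorticoid response element searched for, AGAACA, any 3 bases, then TGTTCT. A window here spans 250 bases before and 50 after an annotated start site. RefSeq (GRCm38.p6) gave 17 windows for the 10 genes, 6 of them for Sgk1. Just 3 of 32851 windows over all genes (0.00913%) held the full element, those of Sgk1, Acnat2 and Gm35041. The stretch below is the 250 bases before the Sgk1 start site at 21993890, and it overlaps no exon of Sgk1. Capitals mark the full element, at positions -189 to -175 from that start site, and a single TGTTCT, the reverse complement of AGAACA, further upstream.
Sgk1 promoter, chr10:21993640-21993889, plus strand: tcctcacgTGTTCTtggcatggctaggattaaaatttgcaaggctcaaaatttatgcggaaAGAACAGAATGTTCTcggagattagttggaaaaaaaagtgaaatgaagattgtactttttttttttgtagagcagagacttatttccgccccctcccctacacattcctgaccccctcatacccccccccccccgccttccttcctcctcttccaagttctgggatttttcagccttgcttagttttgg
The 6-base site AGAACA, on either strand, was in 19.0% of all windows and in 3 of the 17 windows of the regulators, all 3 of Sgk1. The single TGTTCT shares bases with an E box (CACGTG, in 7.15% of all windows). A match of letters is a description and does not show binding.

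Sgk1 was at 72.9, 74.2 and 58.2 CPM in the dex soma libraries and at 52.2, 54.7 and 48.7 CPM in the saline soma libraries. The dex libraries were thus all higher, the lowest of them by a narrow margin. The somatic log2 fold change was 0.41 (SE 0.09, edgeR adjusted p = 0.0159). This call was lost when all 12 libraries shared a fit (adjusted p = 0.119) and without dex replicate 1 (0.0634), dex replicate 2 (0.0900), saline replicate 1 (0.0697) or saline replicate 3 (0.0931), within a range of 0.000119 to 0.119 over 11 alternatives in edgeR and DESeq2. In germ cells Sgk1 was scarce, at 4.38, 5.31 and 3.46 CPM after dex and 2.19, 4.19 and 3.02 CPM after saline, and the groups overlapped. The germ cell log2 fold change of 0.50 had an SE of 0.28 and did not pass the test (edgeR adjusted p = 0.527). The difference of the 2 effects was 0.07 (SE 0.25, edgeR adjusted p = 0.946).

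Ddit4 (ENSMUSG00000020108, chromosome 10, 59949669 to 59951834, minus strand, GRCm38) encodes REDD1, which activates the TSC complex and so lowers mTORC1 activity. In soma it was at 123, 114 and 117 CPM after dex and at 72.7, 67.7 and 99.5 CPM after saline, with saline replicate 3 nearer to the dex libraries than to the other saline libraries. The rise was 0.57 on the log2 scale (SE 0.11, edgeR adjusted p = 0.00634), and it was called under each of 11 alternatives. In germ cells Ddit4 was at 21.3, 28.1 and 28.9 CPM after dex and at 13.55, 17.3 and 14.9 CPM after saline, with no overlap. Its germ cell log2 fold change, 0.79 (SE 0.14), was the largest of the 10 in germ cells, beside 0.57 in soma. The edgeR adjusted p was 0.0503, just past the threshold. Of 11 alternatives, it was at or under 0.05 with RLE size factors (0.0475), a replicate block (0.0244), all 12 libraries in 1 fit (0.0284), no low-count filter (7.2e-06) and DESeq2 (0.000301). Among the fits that left out a library it was at or under 0.05 only without dex replicate 1 (0.0111), and above it in all others (up to 0.273). The difference between the cell types was 0.21 (SE 0.19, edgeR adjusted p = 0.644). The germ cell level of Ddit4 was 19.1% ± 2.37 (saline) and 22.1% ± 3.54 (dex) of the somatic level (SD, n = 3), above the 1.81% to 6.04% of the median somatic marker. Some marker classes stood above that median. The macrophage markers summed to 39.0 CPM in saline germ cells against 238 CPM in saline soma, and to 42.9 against 107 CPM after dex. For the endothelial markers these sums were 53.3 against 350 and 59.0 against 304 CPM. In germ cells 5 of the 9 macrophage and 5 of the 7 endothelial markers passed the low-count filter. These sums thus need not stand for every marker of the class. Sums of the other somatic classes were smaller fractions of their somatic sums. The part of somatic RNA in the Ddit4 values was not tested.

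**Figure D2:**
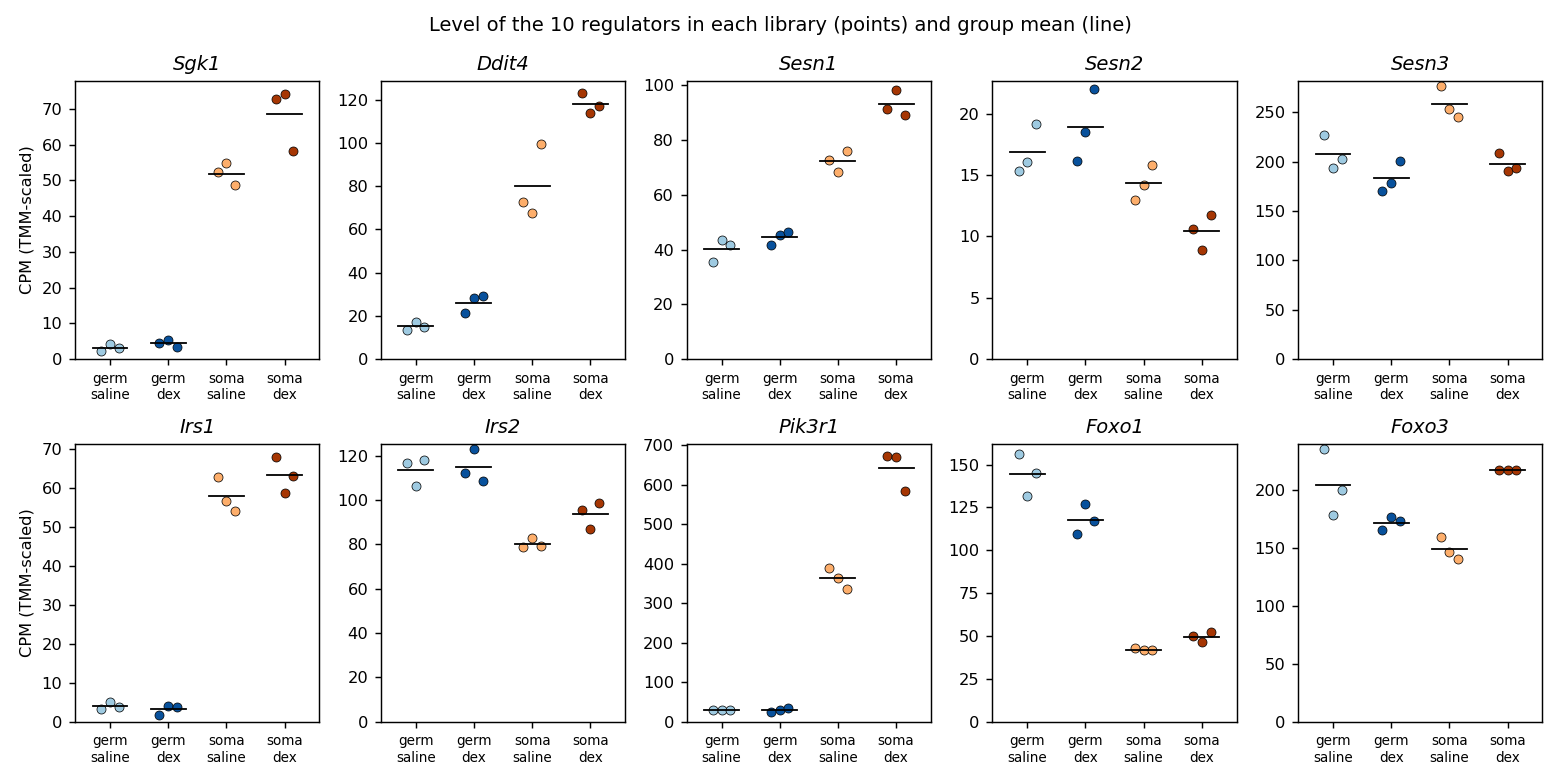
CPM (y axis, from 0, a separate scale per gene) of the 10 regulators in each library (points) of the 4 groups (x axis), with the group mean as a line. Pik3r1 in dex soma (585 to 672 CPM) is clear of saline soma (336 to 388 CPM), and Ddit4 is higher after dex in both cell types, whereas Foxo1 and Foxo3 are higher after dex in soma and lower after dex in germ cells. No germ cell change was called by the reported edgeR fit.

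The 3 sestrins act on mTORC1 through the GATOR complexes. They did not move together in the soma. Sesn1 (ENSMUSG00000038332, chromosome 10, 41809935 to 41908424, plus strand) was at 91.5, 98.4 and 89.1 CPM after dex and 72.6, 68.3 and 75.9 CPM after saline, a rise of 0.37 on the log2 scale (SE 0.07, edgeR adjusted p = 0.0042). Sesn3 (ENSMUSG00000032009, chromosome 9, 14275067 to 14333101, plus strand) was at 209, 191 and 194 CPM after dex and 277, 254 and 245 CPM after saline, and fell by 0.38 (SE 0.07, edgeR adjusted p = 0.00282). Neither gene's groups overlapped, and both calls held under all 11 alternatives. Sesn2 (ENSMUSG00000028893, chromosome 4, 132492032 to 132510501, minus strand) was at 10.6, 8.89 and 11.7 CPM after dex and 13.0, 14.2 and 15.8 CPM after saline. Its log2 fold change of -0.45 (SE 0.15) did not pass the test (edgeR adjusted p = 0.0873), and did so without dex replicate 3 (0.0347), within a range up to 0.274 over the alternatives.

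Per length, the rise of Sesn1 and the lower values of the other two left the somatic total of the family nearly level, at 38.1 ± 1.32 FPKM after saline and 38.3 ± 0.904 FPKM after dex (SD, n = 3). Within that total the share of Sesn1 was 46.3% ± 1.53 after saline and 59.4% ± 2.40 after dex, and that of Sesn3 was 43.2% ± 2.42 and 33.0% ± 1.54. In germ cells the family total was lower, 28.6 FPKM under either treatment, and Sesn3 was the leading member (47.7% ± 4.41 after saline and 42.0% ± 0.673 after dex). The germ cell log2 fold changes were 0.16 (SE 0.09) for Sesn1, 0.18 (SE 0.14) for Sesn2 and -0.16 (SE 0.08) for Sesn3, with edgeR adjusted p-values of 0.523, 0.657 and 0.443. The difference between the cell types was -0.22 for Sesn1, 0.62 (SE 0.22) for Sesn2 and 0.20 for Sesn3, with edgeR adjusted p-values of 0.381, 0.178 and 0.408.

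Neither adaptor was called for dex in soma or in germ cells. Irs1 (ENSMUSG00000055980, chromosome 1, 82233101 to 82291416, minus strand) was at 68.0, 58.6 and 63.0 CPM in dex soma and 62.7, 56.6 and 54.1 CPM in saline soma, so the groups overlapped. Its log2 fold change of 0.14 (SE 0.08) did not pass the test (edgeR adjusted p = 0.376). In germ cells Irs1 was the least abundant of the 10 per length, at 0.433 ± 0.104 FPKM after saline and 0.352 ± 0.134 FPKM after dex (SD, n = 3), and its log2 fold change was -0.28 (SE 0.31, edgeR adjusted p = 0.757). Irs2 (ENSMUSG00000038894, chromosome 8, 10984681 to 11008458, minus strand) was at 95.7, 86.8 and 98.6 CPM in dex soma and 78.6, 82.9 and 79.2 CPM in saline soma. These groups did not overlap, and the log2 fold change of 0.23 (SE 0.07) missed the threshold (edgeR adjusted p = 0.0532, range 0.0439 to 0.183 over 11 alternatives, passing only without dex replicate 2). In germ cells Irs2 averaged 115 CPM after dex and 114 CPM after saline, a log2 fold change of 0.03 with an edgeR adjusted p of 0.891. Irs2 was the larger of the 2 adaptors in both cell types, and the share of Irs1 was larger in soma. Irs2 made up 83.6% ± 3.71 of the summed FPKM of Irs1, Irs2 and Irs4 in saline germ cells and 64.1% ± 2.10 in saline soma, and Irs1 made up 2.02% ± 0.533 and 31.9% ± 1.84. On the opposite strand, annotated genes overlap exons of Irs1 (Gm9747), Irs2 (9530052E02Rik) and Foxo1 (Gm20402), with at most 8 counts in any library.

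Pik3r1 (ENSMUSG00000041417, chromosome 13, 101680563 to 101768217, minus strand) had the largest somatic change of the 10. It was at 672, 672 and 585 CPM in the dex soma libraries and at 388, 365 and 336 CPM in the saline soma libraries. Every dex library was thus far above every saline library. The rise was 0.83 on the log2 scale, or 1.78-fold (SE 0.08, edgeR adjusted p = 1.2e-05), and it was called under all 11 alternatives. In germ cells Pik3r1 was at 25.8, 30.1 and 33.6 CPM after dex and 29.5, 28.8 and 29.8 CPM after saline, which overlapped, with a log2 fold change of 0.04 (SE 0.10, edgeR adjusted p = 0.912). The dex effect differed between the cell types by -0.80 (SE 0.12, edgeR adjusted p = 0.00234), a call that held under all 16 alternatives.

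Among the class I PI3K regulatory subunits, the leading gene was another one in each cell type. Pik3r3 (p55-gamma) made up 82.5% ± 0.335 of the family's FPKM in saline germ cells and 9.56% ± 0.788 in saline soma, and Pik3r1 made up 2.77% ± 0.166 and 49.2% ± 3.43 (SD, n = 3). After dex the somatic share of Pik3r1 was 67.0% ± 2.84 and that of Pik3r2 (p85-beta) 26.8% ± 1.61, from 39.8% ± 2.48 after saline. Pik3r3 itself fell in soma by 0.45 on the log2 scale (SE 0.12, edgeR adjusted p = 0.0436), a call that was lost without any single somatic library other than dex replicate 3 (0.0773 to 0.186). The log2 fold change of Pik3r2 in soma was -0.19 (SE 0.07), which did not pass the test (edgeR adjusted p = 0.108). The somatic total of the 5 subunits was 71.0 ± 0.838 FPKM after saline and 92.8 ± 4.47 FPKM after dex. In germ cells the total was lower after dex, at 88.5 to 91.8 FPKM against 96.5 to 113 FPKM after saline, with no overlap, and the difference of these totals was not tested. Most of the germ cell total was Pik3r3, at 71.3 ± 1.34 FPKM after dex and 87.2 ± 7.27 FPKM after saline (SD, n = 3). The reported edgeR fit did not call Pik3r3 for dex in germ cells. Of the alternatives, only DESeq2 (log2 fold change -0.28, adjusted p = 0.0227) and edgeR with no low-count filter (adjusted p = 0.01501) called it there.

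**Figure D3:**
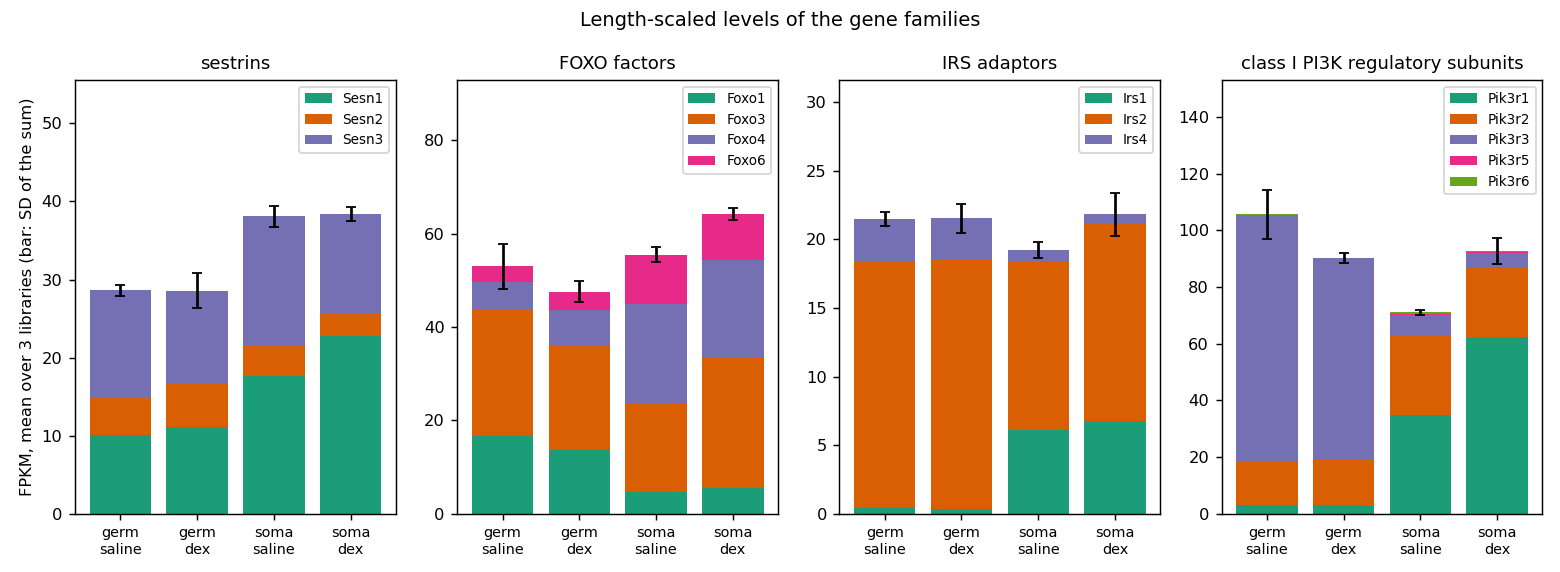
Mean FPKM (y axis, length-scaled) of the members of 4 gene families, stacked, in the 4 groups (x axis), with bars for the SD of the family sum over 3 libraries. In soma the sestrin total stays near 38 FPKM while the Sesn1 band widens from saline to dex, the PI3K regulatory total is higher after dex through Pik3r1, and in germ cells Pik3r3, Irs2 and Foxo3 are the widest bands of their families.

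The FOXO genes encode forkhead transcription factors that insulin signaling holds in the cytoplasm. Foxo3 (ENSMUSG00000048756, chromosome 10, 42181841 to 42276755, minus strand) was at 217 CPM in each of the 3 dex soma libraries and at 160, 147 and 141 CPM in the saline soma libraries. It rose by 0.55 on the log2 scale (SE 0.06, edgeR adjusted p = 0.000101), a call that held under all 11 alternatives. In germ cells the direction of the values was the opposite, at 165, 177 and 174 CPM after dex and 235, 178 and 200 CPM after saline, where the highest dex and the lowest saline library were 176.6 and 178.2 CPM. The germ cell log2 fold change of -0.23 (SE 0.09) did not pass the test (edgeR adjusted p = 0.36). The difference between the cell types was -0.80 (SE 0.12, edgeR adjusted p = 0.00276), and it was called under all 16 alternatives.

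Foxo1 (ENSMUSG00000044167, chromosome 3, 52268336 to 52353221, plus strand) was at 49.8, 46.5 and 52.2 CPM in dex soma and at 43.1, 41.8 and 41.6 CPM in saline soma. The dex libraries were all higher, but the log2 fold change of 0.24 (SE 0.08) did not pass the test (edgeR adjusted p = 0.0787). In germ cells it was at 110, 127 and 117 CPM after dex and at 156, 132 and 145 CPM after saline. Here the dex libraries were all lower, with a log2 fold change of -0.27 (SE 0.08) that did not pass the test either (edgeR adjusted p = 0.242), and passed only with no low-count filter (0.0249, range up to 0.475 over 11 alternatives). The difference between the cell types, -0.52 (SE 0.11), was called (edgeR adjusted p = 0.0259). That call was lost with the pool as a block (adjusted p = 0.0502) and in 9 of 12 fits that left out a library: any saline soma library, or replicate 1 or 3 of dex germ, saline germ or dex soma (adjusted p 0.0504 to 0.085). Of the paralogs, Foxo4 and Foxo6 were not called in either cell type.

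The saline libraries, collected at the same age as the dex libraries, showed where each regulator is expressed without dex. 9 of the 10 differed between germ cells and soma in edgeR's test, among 86.1% of all 17941 genes tested (43.1% higher and 42.9% lower in germ cells). 6 were lower in germ cells. For Sgk1, Irs1 and Pik3r1 the log2 differences were -4.04 (SE 0.17), -3.86 (SE 0.15) and -3.63 (SE 0.08). Ddit4, Sesn1 and Sesn3 differed by -2.39 (SE 0.14), -0.85 (SE 0.09) and -0.32 (SE 0.08). 3 were higher in germ cells, Foxo1 by 1.77 (SE 0.08), Irs2 by 0.50 (SE 0.07) and Foxo3 by 0.45 (SE 0.10). The largest edgeR adjusted p among these 9 was 0.00176, for Sesn3. Sesn2 differed by 0.23 (SE 0.14, edgeR adjusted p = 0.136).

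For the 3 genes lowest in germ cells relative to soma, the germ cell levels in saline were 6.04% ± 1.93 (Sgk1), 6.86% ± 1.72 (Irs1) and 8.09% ± 0.143 (Pik3r1) of the somatic level, and after dex 6.41% ± 1.35, 5.10% ± 1.94 and 4.64% ± 0.606 (SD, n = 3). In saline all 3 genes were above the highest median somatic marker of a saline library (3.73%). After dex each was above the median marker of the same library, except Pik3r1 in replicate 2 (4.69% against 6.04%). The share of Pik3r1 was lower after dex, set against a somatic mean that was itself higher. Relative to soma, the summed macrophage and endothelial markers stood higher in germ cells than all 3 genes, though not every marker of these classes passed the low-count filter there. The part of somatic RNA in the germ cell values of these 3 genes was not tested.

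**Figure D4:**
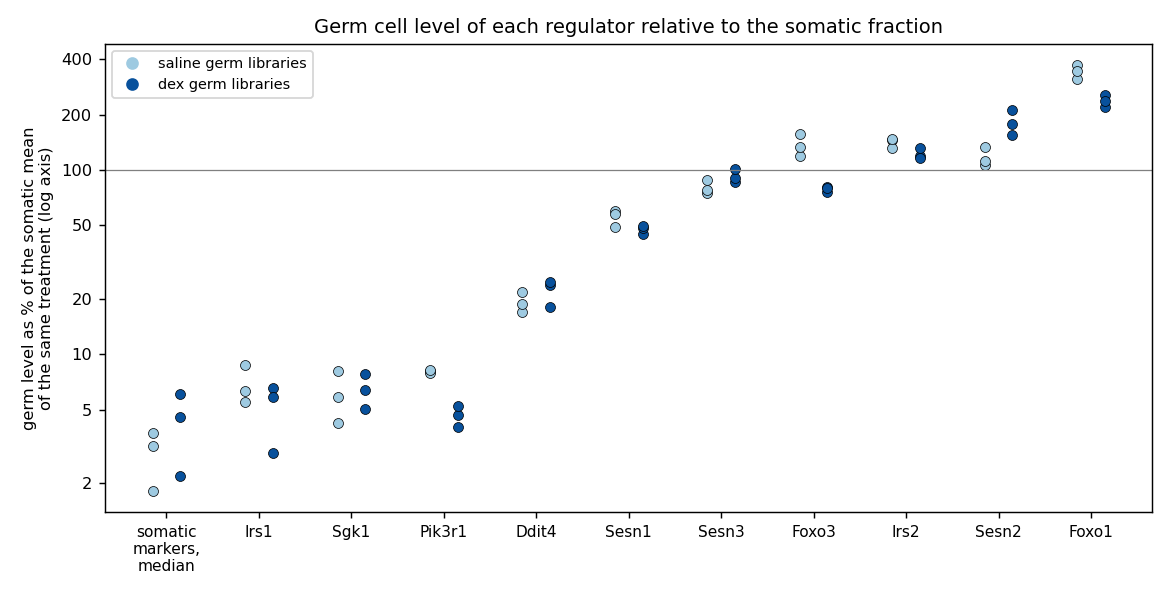
Level of each regulator in the 3 saline (light) and 3 dex (dark) germ cell libraries as a percentage of the mean somatic level of the same treatment (y axis, log scale), beside the median somatic marker (x axis, left). Irs1, Sgk1 and Pik3r1 lie between 2.90% and 8.78%, the median marker lies at 1.81% to 3.73% in saline and 2.17% to 6.04% in dex libraries, and the other 7 regulators lie at 16.9% or above.

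The order of the 4 groups by mean level was the same in CPM and in FPKM for all 10 genes. Dex soma came first for Sgk1, Ddit4, Sesn1, Irs1, Pik3r1 and Foxo3, saline soma for Sesn3, dex germ cells for Sesn2 and Irs2, and saline germ cells for Foxo1. All 4 groups were apart from their neighbors in that order for Ddit4 and Foxo1. For Sgk1, Sesn1, Irs2 and Pik3r1 the 2 germ cell groups overlapped and every other pair of neighbors was apart. Dex soma overlapped saline germ cells for Foxo3. For Sesn2, Sesn3 and Irs1, 2 of the 3 pairs of neighbors overlapped. Per length, the leading regulator was Ddit4 in soma, at 44.3 ± 9.51 FPKM after saline and 65.5 ± 2.96 FPKM after dex, and Foxo3 in germ cells, at 27.1 ± 4.04 and 22.7 ± 0.787 FPKM (SD, n = 3).

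The rest of the pathway was read from a list of 131 further genes in 12 roles, of which 130 were in the count table. This list, too, was chosen with earlier results of these data known. Its shares of called genes, here and below, are thus no independent evidence about the pathway. In soma 125 were tested and 19 were called (15.2%, against 8.18% of all genes), 14 higher and 5 lower, with a median log2 fold change of -0.002 against 0.00014 over all genes. In germ cells 119 were tested and none was called in edgeR, where 0.208% of all genes were. Of the 119, 15 had an unadjusted p under 0.05 in edgeR, as had 1963 of all 16857 genes tested. DESeq2 called 2, Pik3r3 and Lamtor2, where it called 158 of 33149 genes with a p-value, scarce ones included. Of the 19 somatic calls, 8 held under all 11 alternatives, those of Klf15, Pdk4, Ndrg1, Ndrg2, Bcl6, Grb14, Insr and Txnip, and the other 11 were each lost without at least 1 library. Those lost most often were Fnip1 (10 alternatives), Inppl1 (8), Ccng2 and Trib3 (6 each) and Pik3r3 (5). The count was 9 without saline soma replicate 2, 11 without saline replicate 3 or dex replicate 2, and 12 without saline replicate 1. The median germ cell log2 fold change was -0.00026, against 0.014 over all genes.

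By role, of 18 FOXO target genes tested in soma, 5 rose and 1 fell, where 4.81% of all genes tested were called higher and 3.36% lower. Klf15, a transcription factor of amino acid and glucose metabolism, went from 1.67 ± 0.215 to 13.7 ± 0.435 CPM (SD, n = 3). This was a log2 fold change of 3.04 (SE 0.19, edgeR adjusted p = 3.16e-07). Pdk4, which inhibits pyruvate dehydrogenase, went from 7.13 ± 0.444 to 31.7 ± 4.97 CPM, with 2.16 (SE 0.14, edgeR adjusted p = 5.95e-07). Both are also known as direct GR targets in liver and muscle. The repressor gene Bcl6 rose by 0.99, the mitophagy gene Bnip3 by 0.48 and Txnip, an inhibitor of thioredoxin and glucose uptake, by 0.43, and Ccng2 (cyclin G2) fell by 0.23. Of the 3 SGK1 substrates, Ndrg1 and Ndrg2 rose, by 1.32 (SE 0.11) and 1.31 (SE 0.08), and Nedd4l was not called. The values are RNA levels of the substrate genes, and phosphorylation was not measured.

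At the top of the pathway, the insulin receptor gene Insr rose by 0.44 (SE 0.06, edgeR adjusted p = 0.000371), from 93.7 ± 3.39 to 127 ± 1.78 CPM. Of the adaptors that inhibit the receptor, Grb10 rose by 0.35 (SE 0.08) and Grb14 fell by 0.83 (SE 0.13). The class II PI3K gene Pik3c2b fell by 0.81 (SE 0.19), and Inppl1, which encodes the lipid phosphatase SHIP2, fell by 0.23. Trib3, a pseudokinase that binds AKT, rose by 1.70 (SE 0.47) from 0.567 CPM, a call with an edgeR adjusted p of 0.0425 that was lost in 6 of 11 alternatives (up to 0.164), all but 1 of them fits without a library. Further down, Prr5 (a subunit of mTORC2), Castor2 and Fnip1 (both of the amino acid sensing branch) and Rps6 rose by 0.43, 0.46, 0.27 and 0.27. The call of Fnip1 (edgeR adjusted p = 0.0480) was lost in 10 of 11 alternatives, all but the replicate block (up to 0.195). Rps6 has many pseudogene copies, and how multi-mapping reads were handled was not stated. None of the 5 PDK1, AKT and SGK kinases tested, the 13 genes of the TSC, RHEB and energy branch or the 2 FOXO paralogs was called in soma. With 8.18% of all genes called there, such small sets say little about these branches.

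In the test of the difference between cell types, 5 of 126 list genes were called (3.97%), against 1.62% of all genes. Klf15 (-2.78), Ndrg1 (-1.18), Insr (-0.61) and Grb10 (-0.57) had the lower value in germ cells, and Cited2 (0.49), a transcriptional co-regulator, the higher one. The differences of Klf15 and Ndrg1 held under all 16 alternatives. That of Insr (edgeR adjusted p = 0.0443) was lost with the pool as a block (0.0509) and without any library other than replicate 2 of dex or saline germ cells, that of Grb10 without replicate 1 or 2 of dex soma or 2 or 3 of saline soma, and that of Cited2 without replicate 2 of dex germ cells, dex soma or saline soma, replicate 1 of saline germ cells or replicate 3 of saline soma. In germ cells Klf15 was at 8.78 ± 1.41 CPM after saline and 10.5 ± 1.40 CPM after dex, above the saline soma level, with a log2 fold change of 0.27 (SE 0.18, edgeR adjusted p = 0.604). Pdk4 was near the floor there, at 0.423 ± 0.211 and 1.25 ± 0.531 CPM, and its difference between the cell types was not called (-0.60, SE 0.49, edgeR adjusted p = 0.606).

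**Figure D5:**
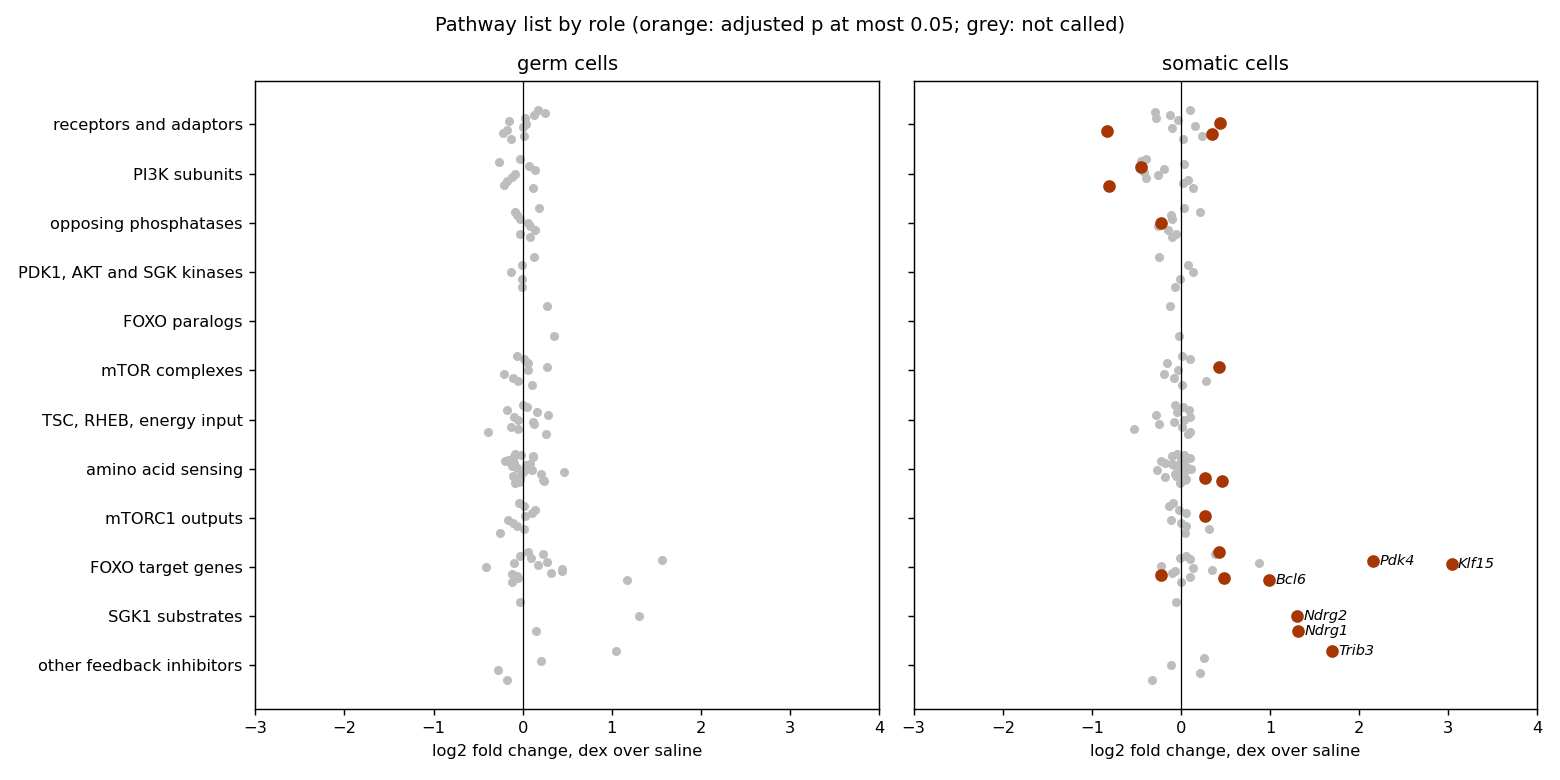
Log2 fold change of dex over saline (x axis) for each tested gene of the pathway list, by role (y axis), in germ cells (left) and somatic cells (right), with called genes in orange and the others in grey. All 19 called genes are in soma, and the ones farthest from 0 are Klf15 at 3.04, Pdk4 at 2.16, Trib3 at 1.70 and the SGK1 substrates Ndrg1 and Ndrg2 at 1.32 and 1.31.

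The genes whose pattern was most like those of the 2 regulators with the largest somatic changes were sought among 14178 genes, by Pearson correlation of log2(CPM + 0.5) over the 12 libraries with each cell type centered on its own mean. The points share libraries and treatment, so the correlations are descriptions. Fam117b, Slc4a11 and Iscu came closest to Pik3r1 (r = 0.974, 0.970 and 0.968). Mbtps1, Ptgis and Col8a1 came closest to Ddit4 (r = 0.949, 0.946 and 0.938). In soma the log2 fold change of Slc4a11, a membrane transporter, was 1.54 (edgeR adjusted p = 0.000955) and that of Iscu, the scaffold of iron-sulfur clusters, was 0.63. Mbtps1, the gene closest to Ddit4, was not called for dex in soma (0.07, edgeR adjusted p = 0.54) or in germ cells (0.13, 0.434).

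Cell type markers also moved with dex in the soma, and they stand beside every somatic result above. Of all genes tested in soma, 4.81% were called higher and 3.36% lower. The 9 macrophage markers summed to 51.9 to 138 CPM after dex and 195 to 268 CPM after saline, and 6 of them fell. The 7 endothelial markers summed to 287 to 324 and 323 to 381 CPM, with 3 lower and 1 higher. Germ cell markers summed to 16.3 to 24.0 CPM in dex soma and 5.89 to 9.94 CPM in saline soma, where 1 of 5 tested was higher. The 10 pregranulosa markers summed to 1250 to 1498 and 1462 to 1538 CPM, with 1 lower. Stromal markers (19399.7 to 25619.9 and 20788 to 23157 CPM, 1 of 8 higher) and erythroid markers (3270 to 16475 and 7382 to 12419.9 CPM, none of 6 called) overlapped, and perivascular markers (552 to 684 and 526 to 539 CPM) did not, with 2 of 6 higher. The 3 mesonephric epithelium markers summed to 121 to 154 and 128 to 152 CPM, with none called. Of all these markers, Pou5f1 and Dppa3 were at 0 throughout dex soma. The part of cell composition in the somatic changes of the regulators was not tested.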

How the data were processed

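RNA of sorted E15.5 ovary cells, GFP+ (germ) and GFP- (soma), was profiled in 12 libraries (3 per group, groups and replicate numbers per the labels). The authors selected polyadenylated RNA, primed with random hexamers and sequenced paired ends, and aligned with HISAT2 2.0.5 to mm10 (GRCm38) and counted with featureCounts 1.5.0-p3, per the methods and the submitters' processing notes. Raw counts per gene and FPKM values were deposited by the authors for 54532 genes. Each FPKM column equaled count over length and library total, times 1 factor per library of 0.946 to 1.026. The strand setting and the handling of multi-mapping reads are not given in the sources used here. The tables of the authors' own comparisons, which hold DESeq2 1.20.0 fold changes, p-values and normalized counts, were not used.

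From the counts, edgeR 4.0.16 in R 4.3.3 was run with TMM scaling (factors 0.974 to 1.043), the filterByExpr filter and the quasi-likelihood F test, with no covariate. Dex was compared with saline within each cell type, germ cells with soma among saline libraries, and the difference of the 2 dex effects over all 12 libraries. A gene was called where its Benjamini-Hochberg adjusted p, over all genes tested, was 0.05 or lower, with no fold-change minimum. Standard errors are those implied by the F statistic. Levels are mean ± SD over 3 libraries, and 3 counts, taken as the floor, were 0.169 to 0.196 CPM. No confidence interval of a single library was needed, and the floor covers counting error only. An exact permutation test of 3 against 3 libraries cannot go below p = 0.1, so none is given for single values. Replicates of a group differed by more than sampling noise (chi-square per gene 5.11 to 19.8), and each was counted as a sample of its own. The fits were also run on simulated counts, with a fixed effect size in well-counted genes only. That run does not cover smaller effects or scarce genes. Promoter windows were from RefSeq (GRCm38.p6), and gene coordinates from the deposited table, identical to GENCODE vM21. Alternatives were RLE size factors, DESeq2 1.42.0, no low-count filter, a replicate block, all 12 libraries in 1 fit, each library left out, and FPKM levels.

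The members and gene lists were chosen with earlier results of these data known. Named were all 10 members, up to 10 called list genes per dex comparison with the largest log2 fold change, a mean of at least 1 CPM and no overlap of groups, the 3 genes most like each of 2 members, and Fkbp5, Tsc22d3, Nr3c1 and Pou5f1. Other genes were named after their values were seen.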

Additional observations from a re-analysis of the deposited data

Results flagged for a closer look

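For 8 genes the dex effect differed between germ cells and soma in edgeR's test of the difference itself (germ cell minus somatic log2 fold change, over all 12 libraries). Among the 10 regulators these were Pik3r1 (-0.80), Foxo3 (-0.80) and Foxo1 (-0.52). In the pathway list they were Klf15 (-2.78), Ndrg1 (-1.18), Insr (-0.61), Grb10 (-0.57) and Cited2 (0.49). Pik3r1, Foxo3, Klf15 and Ndrg1 were called under all 16 alternatives. Foxo1, Insr, Grb10 and Cited2 each lost the call without at least 4 of the single libraries named in the report. For Foxo1 and Foxo3 all 3 dex libraries were above all 3 saline libraries in soma and below them in germ cells. Of all genes tested, 12.7% were separated upward in soma and 10.0% downward in germ cells. In the reported edgeR fit neither gene was called for dex in germ cells, and Foxo1 was not called in soma. The explanations of these differences were not tested.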

How the results depend on the processing

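All 10 regulators kept the direction of their somatic change, and Ddit4, Sesn1, Sesn3, Pik3r1 and Foxo3 their somatic call, under all 11 alternatives. In germ cells 35 genes were called by the reported fit, 158 by DESeq2, 420 without the low-count filter, 64 with all 12 libraries in 1 fit, and 17 to 81 without a library. The regulators called there numbered 1 with RLE size factors, DESeq2 or all 12 libraries in 1 fit (Ddit4), 2 without the filter (Ddit4 and Foxo1), and 0 to 1 without a library. List genes called in germ cells numbered 2, 3 and 1 with DESeq2, no filter and all 12 libraries. In soma 1354 genes became 803 with all 12 libraries in 1 fit and 754 to 1881 without a library, the regulators called numbered 5 to 7, and the list genes called 9 to 19. For the difference, 314 genes became 620 with DESeq2, 727 without the filter and 143 to 384 without a library, and 5 list genes became 9 with DESeq2 and 2 to 6 without a library. The causes were not tested.

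Whether the replicate numbers pair dex with saline libraries was not settled. The same-numbered dex and saline libraries correlated in their deviations at 0.215, 0.013 and 0.068 in germ cells and 0.116, -0.016 and 0.055 in soma. Those of different numbers correlated at -0.157 to 0.112 in germ cells and -0.114 to 0.058 in soma. Between germ cells and soma of a treatment, same-numbered libraries correlated at 0.0798 to 0.134, and every library correlated best with its own number, a hint from the data. With the replicate block 49 genes were called in germ cells (1 regulator, Ddit4, adjusted p = 0.0244), 1520 in soma and 15283 between the cell types in edgeR, and with the pool as the block 222 for the difference, where Foxo1 and Insr were lost (edgeR adjusted p = 0.0502 and 0.0509).

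Uncalled values that changed sign without a library were, in germ cells, Irs2 (-0.024 to 0.082), Pik3r1 (-0.040 to 0.11), Bnip3 (-0.14 to 0.033), Grb14 (-0.29 to 0.034), Nr3c1 (-0.054 to 0.012) and Pou5f1 (-0.061 to 0.40), and, for the difference, Sgk1 (-0.11 to 0.34), Bcl6 (-0.21 to 0.71) and Ndrg2 (-0.29 to 0.21). Depth limits Sgk1 and Irs1 in germ cells, at 28 to 86 counts a library.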
